A study of Mus musculus with 9 samples.

Results

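Tigit, related receptor genes, the PVR and nectin genes and the PD-L1 gene were followed in MyC-CaP cells given NRG1. The set held 9 genes. These were the receptor gene Tigit, the related receptor genes Cd96 and Cd226, Pvr, Nectin1, Nectin2, Nectin3 and Nectin4, and Cd274, which encodes PD-L1. Members were taken by gene name from a table of 15552 protein-coding genes, where 6 of the 9 had a row. Cd96, Cd226 and Nectin3 were not analysed here. Tigit was chosen on its rise at 24 h in these same libraries, so its values are a description and carry no test. The others were named as related receptors, as PVR and nectin family genes, and as a fellow checkpoint gene. They were named with earlier results of these data known, and whether their values led to the choice is not recorded. Those with enough counts were tested within the fit over all genes, and their p-values carry that limit.

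MyC-CaP is a mouse prostate cancer line driven by a MYC transgene, and it was the single line behind every library. Cells were starved for 6 to 12 h in medium without serum and calcium and then given recombinant NRG1, a ligand of HER3, at 15 ng/mL. RNA was collected after 0, 12 or 24 h, and each time had 3 libraries labelled as biological replicates. All 9 libraries carry the same treatment label, and libraries kept in the medium without NRG1 for 12 or 24 h were not analysed here, so time with NRG1 and time in the medium cannot be told apart. The protocol names triplicate wells, so p-values measure the spread between these wells.

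TIGIT is an inhibitory receptor known from T cells and natural killer cells. It binds PVR (CD155) most strongly and nectin-2 (CD112) more weakly, and it competes for them with the activating receptor CD226, while CD96 also binds PVR. Nectins are adhesion proteins of cell junctions that hold neighboring cells together and connect to actin through afadin. PD-L1 is the ligand of another inhibitory receptor of T cells, PD-1, and its gene is classically induced by interferon.

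The 250 bases before the annotated start site of Tigit, Nectin2 and Cd274 are printed because these are the measured members for which RefSeq start sites on GRCm38.p6 were at hand. They lie at chr16:43664185-43664434 (minus strand) for Tigit, chr7:19749574-19749823 (minus strand) for Nectin2 and chr19:29367188-29367437 (plus strand) for Cd274. The Nectin2 window lies wholly within the gene span of the count annotation, 19716644 to 19750483, so it is not upstream of that span. Capitals mark the motif matches described after the sequences, on either strand.

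Tigit: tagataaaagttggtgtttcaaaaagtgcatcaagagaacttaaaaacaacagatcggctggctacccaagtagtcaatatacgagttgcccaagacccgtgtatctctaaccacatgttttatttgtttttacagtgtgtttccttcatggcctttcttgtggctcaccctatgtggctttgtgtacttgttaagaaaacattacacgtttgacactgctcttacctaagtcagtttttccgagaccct

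Nectin2: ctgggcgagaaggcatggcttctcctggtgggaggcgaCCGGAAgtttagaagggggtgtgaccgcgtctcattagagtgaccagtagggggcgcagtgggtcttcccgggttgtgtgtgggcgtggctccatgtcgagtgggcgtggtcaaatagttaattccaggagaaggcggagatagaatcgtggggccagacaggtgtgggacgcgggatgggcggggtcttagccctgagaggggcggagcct

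Cd274: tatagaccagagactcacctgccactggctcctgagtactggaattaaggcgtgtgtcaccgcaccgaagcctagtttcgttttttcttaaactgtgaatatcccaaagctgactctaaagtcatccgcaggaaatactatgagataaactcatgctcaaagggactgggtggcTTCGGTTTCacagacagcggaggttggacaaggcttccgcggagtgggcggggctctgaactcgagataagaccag

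In these windows 7 motifs were first searched on both strands: an E-box (CACGTG, in 6.02% of 32851 promoter windows of that length), an AP-1 site (TGANTCA, 6.75%), an interferon-gamma GAS element (TTCNNNGAA, 7.02%), an interferon-response core (GAAANNGAA with an A after it, 2.98%), an ETS core (CCGGAA, 12% of windows), an E2F site (TTTCCCGC, 0.895%) and a TATA box (TATAAA, 12.4%). Tigit and Cd274 held none of the 7. Nectin2 held the ETS core, 212 bases before its RefSeq start site and inside the gene span of the count annotation. The interferon-response core was then also searched without its last A, a change made after the first result had been seen. That looser form is in 7.13% of windows, and Cd274 holds it 76 bases before its start site. The Cd274 match therefore rests on which form is searched. The Tigit window had a GC content of 40%, with 11.8% of windows lower and a median of 52.4%. The Nectin2 window was at 62% and the Cd274 window at 50.4%. A match or its lack says only which letters are in these windows.

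The libraries held 28467089 to 39239760 counts each. Levels are given as CPM, counts scaled to library size after TMM, and levels of different genes are compared only per kilobase of exon. A floor of 3 counts corresponded to 0.0764 to 0.106 CPM. A gene "passed" when its Benjamini-Hochberg adjusted p in edgeR's quasi-likelihood test was at most 0.05, and was "called" when it also changed at least 1.5-fold. Of the 6 members with a row, 5 had enough counts to be fitted and Nectin4 did not. Both later times were compared with the same 3 libraries at 0 h.

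Before the members, the labelled cell type was checked. The labels describe prostate cancer epithelial-like cells. The prostate luminal factors Foxa1 and Hoxb13 were at means of 281 and 84.3 CPM at 0 h. The keratins Krt19 and Krt8 were at 98.7 and 18.2 CPM. The defining epithelial markers Epcam and Cdh1 were close to 0, with at most 3 and 4 counts in any library, and Krt18 was at 0.253 CPM. Prostate luminal factors were thus well above the floor, while these adhesion markers of epithelium were nearly lacking.

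Tigit (ENSMUSG00000071552.5, GRCm38 chromosome 16, 43648867 to 43664146, minus strand) was well above the floor in these tumor cells before NRG1. At 0 h it had 226, 295 and 278 counts in the 3 libraries, or 8.02, 7.76 and 8.07 CPM. At 12 h it had 423, 370 and 382 counts, or 11.8, 11.9 and 12.5 CPM. At 24 h it had 584, 594 and 637 counts, or 19.1, 17.8 and 16.2 CPM. Every library at 12 h was above every library at 0 h, and every library at 24 h was above all of the earlier ones.

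Mean Tigit levels were 7.95 ± 0.168, 12.1 ± 0.352 and 17.7 ± 1.45 CPM (SD, n = 3) at 0, 12 and 24 h. The fitted log2 fold change against 0 h was 0.60 ± 0.084 (SE) at 12 h and 1.15 ± 0.081 at 24 h, a 2.22-fold difference. From 12 to 24 h it was 0.55 ± 0.077, so the steps on the log2 scale were of like size. By size of rise Tigit ranked 26 of 11373 fitted genes at 24 h against 0 h and 221 at 12 h, which restates how it was chosen. Over all settings tried its 24 h value stayed between 1.10 and 1.22. Each setting refits the libraries on which Tigit was chosen, so neither this range nor the SEs are support for the rise. Its exons do not overlap those of another annotated gene.

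**Figure D1:**
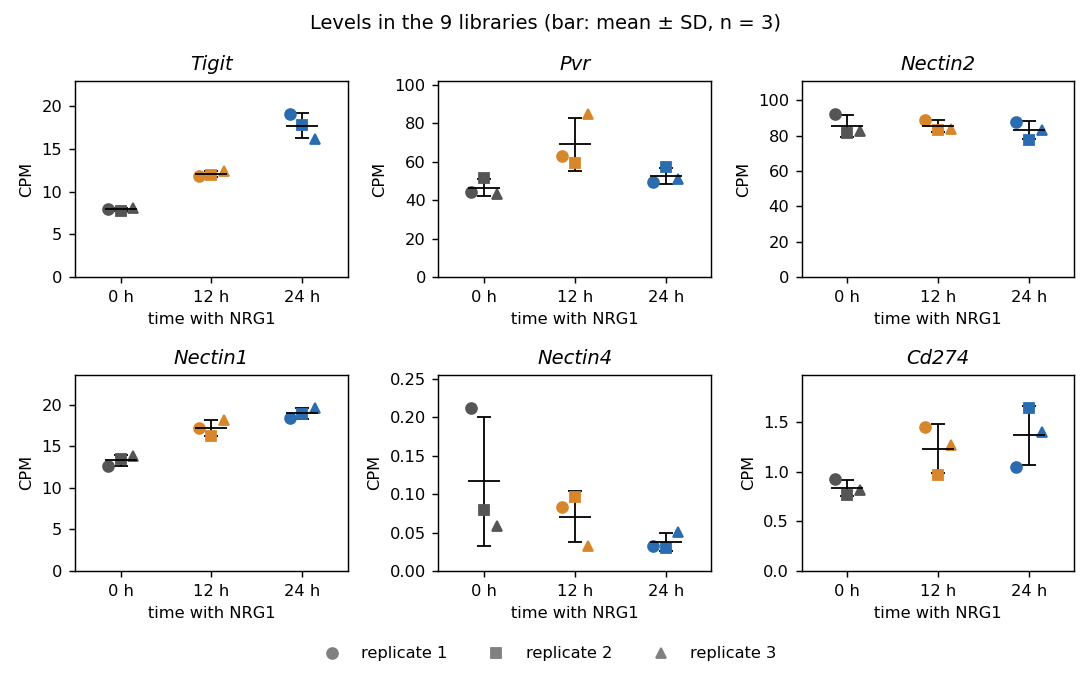
Levels of the 6 members in CPM (vertical axes, each from 0) at 0, 12 and 24 h (horizontal axes), with 1 point per library and a bar for the mean ± SD of 3 libraries. Tigit climbs without overlap from 7.95 to 17.7 CPM, Nectin1 climbs from 13.4 to 19.0 CPM, Pvr is highest at 12 h, Nectin2 is level, and Nectin4 lies at a few counts.

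Since Tigit is known from lymphocytes, markers of other cells were measured beside it. Of 23 T and natural killer cell markers 12 had a row, and 4 of these had at most 3 counts in every library. Cd3e and Cd3g reached at most 2 counts, Cd247 at most 1, Cd4 at most 2 and Ptprc, the leukocyte antigen CD45, at most 8. The highest were Lck and Cd28, each at 5 to 14 counts, and Cd52, at 3 to 13. Lck, a kinase of the T cell receptor, had means of 0.189, 0.322 and 0.361 CPM at 0, 12 and 24 h, with a log2 fold change of 0.91 ± 0.45 at 24 h (edgeR adjusted p = 0.184). Cd28, a costimulatory receptor gene, had means of 0.281, 0.184 and 0.299 CPM (edgeR adjusted p = 0.944 at 24 h). Their part in the Tigit values was not tested. The 12 markers summed to 0.781 to 1.21 CPM at 0 h, 0.866 to 1.11 CPM at 12 h and 1.02 to 1.35 CPM at 24 h. Per kilobase of exon the 12 summed to 0.273 to 0.482 CPM per kb over the 9 libraries, and Tigit alone was at 8.44 to 20.8 CPM per kb. Myeloid and B cell markers (10 of 13 with a row) summed to 7.94 to 9.12, 11.1 to 13.0 and 10.8 to 11.2 CPM at 0, 12 and 24 h, and Cd14 made up nearly all of it, with means of 7.90, 11.2 and 10.2 CPM. Stromal markers (9 of 10) summed to 15.6 to 18.5 CPM over the 9 libraries, nearly all of it Pdgfra. In bulk RNA, fewer cells of a type and less RNA per cell cannot be told apart.

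**Figure D2:**
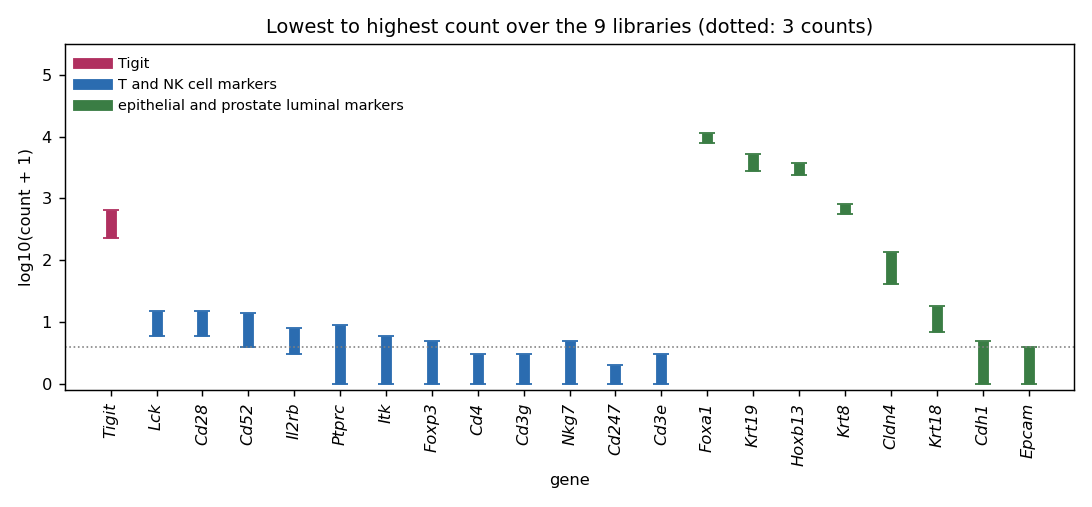
Range of counts over the 9 libraries for Tigit, 12 T and natural killer cell markers and 8 epithelial and prostate luminal markers, as log10(count + 1), with a dotted line at 3 counts. Counts are not corrected for exon length. Tigit has 226 to 637 counts, no T and natural killer cell marker exceeds 14, and Epcam and Cdh1 lie near 0.

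RNA of Pvr, the gene of the ligand that binds TIGIT most strongly, rose at 12 h and was lower again at 24 h. Pvr (ENSMUSG00000040511.14, chromosome 7, 19903578 to 19921160, minus strand) was at 44.4, 51.5 and 43.5 CPM at 0 h, at 63.1, 59.3 and 84.9 CPM at 12 h, and at 49.5, 57.0 and 51.2 CPM at 24 h. All libraries at 12 h were above all others, and those at 0 and 24 h overlapped. Its 12 h value was 0.57 ± 0.10 on the log2 scale (1.48-fold, edgeR adjusted p = 0.000644), which passed and fell just short of a call. At 24 h against 0 h it was 0.18 with a 95% interval of -0.043 to 0.40 (edgeR adjusted p = 0.276). From 12 to 24 h Pvr fell by 0.39 on the log2 scale (edgeR adjusted p = 0.0344).

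The highest Pvr value came from replicate 3 at 12 h, a library that also differed most from its group over all genes. Without that library the rise at 12 h came to 0.41 (edgeR adjusted p = 0.000189) and the change from 12 to 24 h was -0.23 (edgeR adjusted p = 0.0461). The fall from 12 to 24 h did not pass under DESeq2 (adjusted p = 0.115), nor in edgeR without replicate 1 at 12 h (adjusted p = 0.0529), replicate 1 at 24 h (0.135) or replicate 3 at 24 h (0.133).

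Nectin1 rose at both times. This gene (ENSMUSG00000032012.9, chromosome 9, 43743984 to 43832658, plus strand) encodes an adhesion nectin and herpesvirus receptor that is not a main TIGIT ligand. It was at 12.6, 13.5 and 13.9 CPM at 0 h, at 17.2, 16.2 and 18.2 CPM at 12 h, and at 18.4, 19.0 and 19.7 CPM at 24 h. The libraries of the 3 times did not overlap. On the log2 scale the rise was 0.37 ± 0.071 by 12 h (edgeR adjusted p = 0.00120) and 0.51 ± 0.070 by 24 h (1.42-fold, edgeR adjusted p = 7.30e-05). The 12 to 24 h difference was 0.14, with a 95% interval of -0.0023 to 0.29 (edgeR adjusted p = 0.258). Both rises passed under each of the 14 alternatives.

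Nectin2 showed no detectable change. The gene of the weaker TIGIT ligand (ENSMUSG00000062300.14, chromosome 7, 19716644 to 19750483, minus strand) was at 92.4, 81.3 and 82.6 CPM at 0 h, at 89.1, 82.9 and 83.9 CPM at 12 h and at 87.9, 77.7 and 83.5 CPM at 24 h. The groups overlapped throughout. The 95% interval of its log2 fold change was -0.11 to 0.12 at 12 h (edgeR adjusted p = 0.997) and -0.15 to 0.076 at 24 h (edgeR adjusted p = 0.684), so a 1.5-fold change in either direction lies outside both. Of its exon bases 3.86% overlap Gm20512 on the opposite strand.

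Nectin4 was too low to measure. This gene (ENSMUSG00000006411.12, chromosome 1, 171370099 to 171388598, plus strand) encodes the nectin targeted by an antibody-drug conjugate in bladder cancer. It had 6, 3 and 2 counts at 0 h, 3, 3 and 1 at 12 h, and 1, 1 and 2 at 24 h. Only the first of these libraries was above the floor of 3 counts, and no change was read from it.

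Cd274 was low but measurable, and its higher values later did not pass the test. The PD-L1 gene (ENSMUSG00000016496.7, chromosome 19, 29367455 to 29388095, plus strand) had 26, 29 and 28 counts at 0 h, 52, 30 and 39 at 12 h, and 32, 55 and 55 at 24 h. As CPM these were 0.923, 0.763 and 0.813, then 1.45, 0.965 and 1.27, then 1.05, 1.64 and 1.40. Every later library was above every library at 0 h, while 12 and 24 h overlapped. On the log2 scale the difference was 0.58 at 12 h (95% interval 0.030 to 1.13, edgeR adjusted p = 0.116) and 0.73 at 24 h (0.19 to 1.26, edgeR adjusted p = 0.0580). Over the alternatives the 24 h adjusted p in edgeR or DESeq2 ran from 0.0392 to 0.208, and it passed without replicate 1 at 24 h and with no filter on low counts. Of the exon bases of Cd274, 14.1% overlap AC119228.1 on the opposite strand, and whether counting used the strand was not stated.

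**Figure D3:**
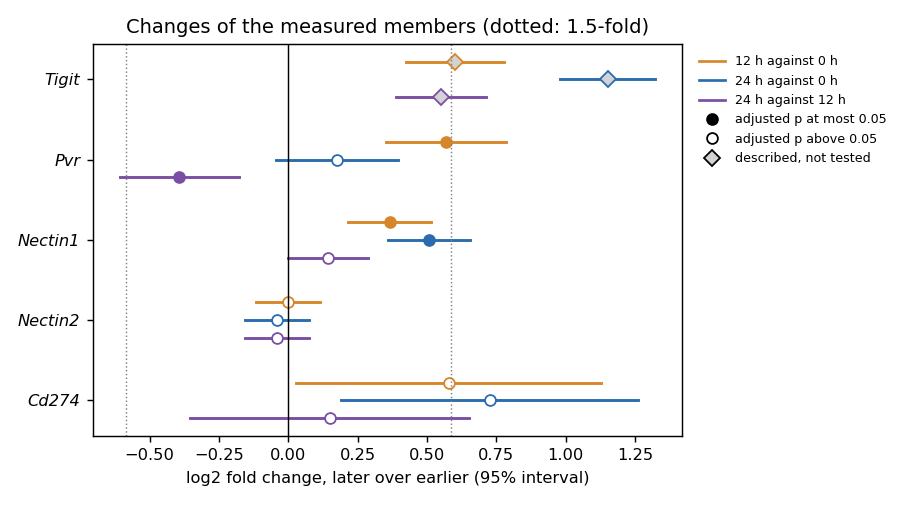
Log2 fold changes of the 5 fitted members (horizontal axis, 95% intervals) in the 3 comparisons, with filled points for an adjusted p of at most 0.05, dotted lines at 1.5-fold, and Tigit as untested grey diamonds. Pvr turns from 0.57 at 12 h to 0.18 at 24 h, Nectin1 stays above 0, Nectin2 is centered on 0 and Cd274 has the widest intervals. The Tigit intervals come from the libraries on which it was chosen and are a description only.

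Of the 4 tested members, 2 passed at 12 h against 0 h (Pvr and Nectin1, both higher), where 25.5% of all tested genes passed and 13.6% passed as higher. At 24 h against 0 h 1 passed (Nectin1), beside 17.4% of all genes and 9.67% as higher. From 12 to 24 h 1 passed (Pvr, lower), beside 5.03% of all genes and 3.06% as lower. None of the 4 was called in any comparison by edgeR or DESeq2, with 3, 2 and 1 of them under an unadjusted p of 0.05, where 2.29%, 2.27% and 0.290% of all genes were called. With 4 genes these counts say little about the set as a whole.

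Per kilobase of exon the order at 0 h was Nectin2 at 24.4 CPM per kb, Tigit at 8.65, Pvr at 7.59, Nectin1 at 2.36, Cd274 at 0.23 and Nectin4 at 0.031 CPM per kb. Of the tested genes 82.2% were lower than Nectin2 and 56.5% lower than Tigit. Tigit and Pvr were close neighbors at 0 h, at 8.44 to 8.79 and 7.10 to 8.42 CPM per kb, and their libraries overlapped at 12 h. At 24 h Tigit was at 19.3 and Pvr at 8.59 CPM per kb, with no overlap. Levels were also summed over Pvr and the 3 nectin genes with a row. The sums were 33.2 to 36.0 CPM per kb at 0 h, 36.3 to 41.1 at 12 h and 34.9 to 36.5 at 24 h. Nectin2 made up 68.2 to 73.5% of that sum at 0 h, 58.4 to 65.6% at 12 h and 63.7 to 68.9% at 24 h. Exon lengths span all annotated isoforms, and the 919 exon bases of Tigit are few, so this order depends on the annotation. Lengths come from an older annotation release than the counts, in which the span of Nectin1 differs.

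Genes around the axis were counted beside the shares over all tested genes, of which 25.5% passed at 12 h, 17.4% at 24 h and 5.03% from 12 to 24 h. Among 14 partners of TIGIT, PVR and the nectins (further receptors, CADM adhesion genes and signaling adaptors) 9 were tested, and 2 passed at 12 h and 2 at 24 h. At 12 h Grb2, an adaptor that binds the TIGIT tail, rose by 0.11 (edgeR adjusted p = 0.0347) and Cadm2 fell by 0.27 (0.00530). At 24 h Arrb2, encoding beta-arrestin 2, rose by 0.27 (edgeR adjusted p = 0.0342) and Cadm2 fell by 0.29 (0.00464). None of the 9 passed from 12 to 24 h in edgeR or DESeq2, with 1 under an unadjusted p of 0.05. The list's median log2 fold change was 0.083 at 12 h and 0.053 at 24 h, beside -0.0028 and -0.0065 over all tested genes.

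Of 22 nectin junction partners 19 were tested. At 12 h 3 fell, the afadin and actin linkers Lmo7 (-0.17), Ssx2ip (-0.14) and Actn1 (-0.12), and none rose. At 24 h Lmo7 was lower (-0.11) and the integrin Itgb3 higher (0.22). Afdn, which encodes afadin, had a value of -0.077 at 12 h and did not pass (edgeR adjusted p = 0.293). None passed between 12 and 24 h in edgeR or DESeq2, with 4 under an unadjusted p of 0.05, and the medians were 0.013 and 0.017 at 12 and 24 h.

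Among 30 other checkpoint genes 15 were tested, and 6 passed at 12 h in edgeR and 4 in DESeq2, beside 25.5% of all tested genes in edgeR. At 24 h 3 passed in both. Ceacam1, an adhesion gene whose product can bind TIM-3, had 84.8 ± 7.82 CPM before NRG1 and 53.6 ± 7.02 CPM by 12 h, a change of -0.66 on the log2 scale (edgeR adjusted p = 6.74e-05). By 24 h it had 53.4 ± 7.36 CPM, a change of -0.67 (edgeR adjusted p = 7.04e-05). Both differences were calls, though reads shared with its close paralog Ceacam2 could be split. Ctla4, an inhibitory T cell receptor gene, was called at 12 h (1.30 ± 0.43, edgeR adjusted p = 0.0346) at only 5 to 21 counts per library, and did not pass under DESeq2 (adjusted p = 0.0783). The "do not eat me" gene Cd47 rose at 12 h (0.20) and at 24 h (0.19). At 12 h Lgals3 (0.21) and Ido1 (0.40) also rose and Lgals9 fell (-0.34), although Ido1 did not pass under DESeq2 (adjusted p = 0.0659), and Lgals9 was still lower at 24 h (-0.16). Between 12 and 24 h none passed in edgeR, with 1 under an unadjusted p of 0.05, and 1 passed in DESeq2. The medians were -0.13 and -0.047 at 12 and 24 h. The second PD-1 ligand gene, Pdcd1lg2, had at most 2 counts in any library.

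The 27 regulators of PD-L1 were all tested. At 12 h the interferon signaling genes Irf9 (-0.48), Stat2 (-0.40) and Jak2 (-0.13) fell and Hif1a rose (0.15). At 24 h against 0 h none passed in edgeR, with 5 under an unadjusted p of 0.05, and 1 (Hif1a) passed in DESeq2 (adjusted p = 0.0383). Between 12 and 24 h Irf9 (0.55), Stat2 (0.43), Adar (0.21) and Jak2 (0.18) rose. Irf9 went from 11.8 ± 0.341 to 8.48 ± 1.10 and back to 12.5 ± 0.424 CPM. The list's medians were 0.00097 at 12 h and 0.047 at 24 h.

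**Figure D4:**
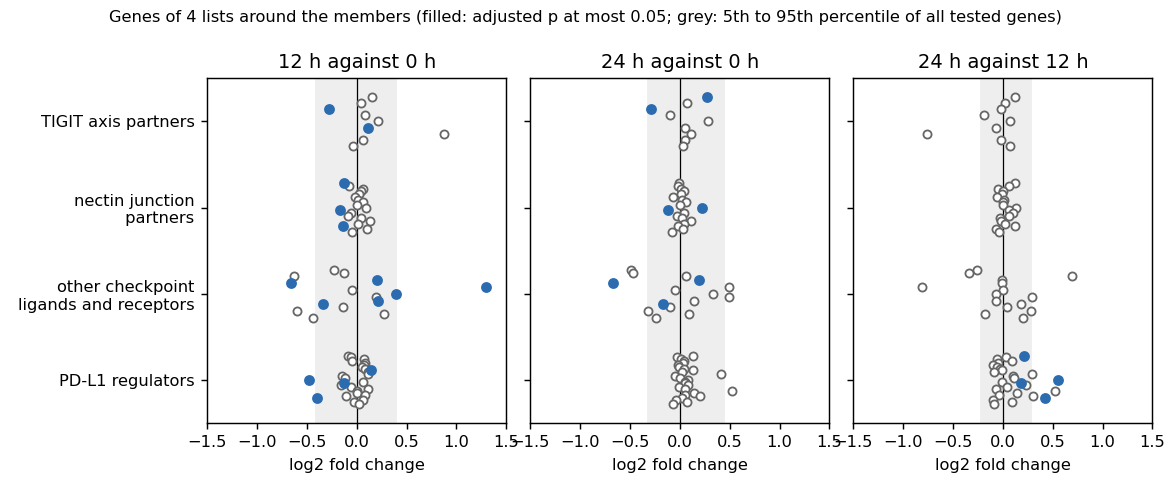
Log2 fold changes of the tested genes of 4 lists (rows) in the 3 comparisons, filled where the adjusted p is at most 0.05, over a grey band from the 5th to the 95th percentile of all tested genes. Most genes lie in the band. Outside it at 12 h lie Ctla4 (1.30), Itgal (0.87), Ceacam1 (-0.66), Cd28 (-0.63), Tnfrsf14 (-0.60), Irf9 (-0.48) and Vtcn1 (-0.44). Of these, only Ctla4, Ceacam1 and Irf9 passed.

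Near Tigit, the transcription factor gene Zbtb20 ends 6.26 kb away and faces it. It was at 611 ± 35.9, 466 ± 145 and 540 ± 80.4 CPM at 0, 12 and 24 h and did not pass (edgeR adjusted p = 0.0549 at 12 h). Its 12 h libraries were at 396, 369 and 633 CPM, the last again from replicate 3. Qtrt2, 197 kb away, did not pass in any comparison. Near Cd274, Plgrkt starts 65 bases away in the other direction and differed by 0.062 at 12 h and 0.056 at 24 h, neither passing. Farther off in the same window, 42.1 and 54.4 kb away, Insl6 was higher by 0.26 on the log2 scale at 12 h (edgeR adjusted p = 0.0288). Jak2 fell by 0.13 at 12 h (0.0125) and rose by 0.18 from 12 to 24 h (0.00618). Ric1, 134 kb away, did not pass, and Pdcd1lg2 and Rln1 were too low to be fitted, with at most 2 and 6 counts.

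The genes whose log2 CPM followed Tigit most closely over the 9 libraries, among 9415 genes of at least 5 CPM, were S100a14 (r = 0.99), Apcdd1 (0.98), Troap (0.98), Tfb1m (0.97) and Serpinb9 (0.97). S100a14 had means of 7.84, 12.3 and 17.5 CPM at 0, 12 and 24 h. Among the members r with Tigit was 0.93 for Nectin1, 0.74 for Cd274, 0.29 for Pvr and -0.20 for Nectin2. These points share 3 time points and the scaling of each library, so the values are descriptions only.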

How the data were processed

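Total RNA of 9 MyC-CaP libraries was sequenced from both ends (150 bp) after mRNA library preparation. Adaptor trimming by the authors used Cutadapt; they mapped reads to GRCm38 with STAR and GENCODE annotation, and deposited raw counts per gene from featureCounts. Strand setting and the handling of reads matching several genes are not given in the sources used here, which can split counts of overlapping or paralogous genes. The members and gene lists were chosen with earlier results of these data known.

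Groups were taken from the labelled time. Counts were filtered with filterByExpr (11373 genes left), scaled by TMM and fitted together in edgeR 4.0.16 (R 4.3.3) with the quasi-likelihood F-test, with Benjamini-Hochberg adjustment over all tested genes. Every member was named whatever its change. From each list the called genes were named, or up to 3 with the largest change among those that passed, and further genes that passed were named after their values were seen. Log2 CPM for likeness used a prior count of 2. Replicates differed beyond counting noise (chi-square per degree of freedom 3.75 to 10.1), so none was merged. Intervals and floors of single libraries cover counting error only. Scripts were tested on simulated data. A marker of the cell type check is not reported here. Exon lengths are merged exons of GENCODE vM21, in which 15541 of 15552 identifiers were found. The study counted on GENCODE vM24. Start and end were identical in vM21 for 15416 genes, and Nectin1 was not among them. Promoter windows are from RefSeq (GRCm38.p6), which matched 4 of 6 members and left out Pvr and Nectin1. Of 8 motifs searched, 1, the interferon-response core without its last base, was added after the results of the full core had been seen. Alternatives were DESeq2 1.42.0, RLE factors, total counts, no filter, a replicate block and leaving out each library.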

Additional observations from a re-analysis of the deposited data

How the results depend on the processing

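With each library left out in turn, the count of tested members called at 12 h against 0 h ranged from 0 to 1, being 1 (Pvr, at 0.63 to 0.66) without 0 h replicate 2, 12 h replicate 1 or 12 h replicate 2. At 24 h against 0 h, members passing ranged from 1 to 2 and members called from 0 to 1, and with no filter on low counts 3 passed and 1 was called, with Pvr at 0.18 and Cd274 at 0.73. Pvr at 24 h ranged from 0.12 to 0.26 and Cd274 from 0.58 to 0.87 with a library left out. Pvr also passed without 12 h replicate 3 (0.18, edgeR adjusted p = 0.0433), and Cd274 without 24 h replicate 1. From 12 to 24 h, 0 members passed under DESeq2, where Pvr was at -0.39, and 0 to 1 with a library left out, where Pvr ranged from -0.49 to -0.23 and Cd274 from -0.00068 to 0.30. The Nectin2 values lie around 0 and changed sign: at 12 h -0.010 with total counts, -0.00038 with the replicate block and -0.032 to 0.060 with a library left out, at 24 h -0.079 to 0.019, and from 12 to 24 h -0.077 to 0.0032. The cause was not tested. With no filter the adjusted p of Pvr at 12 h was 3.55e-24, and the cause of so small a value was not tested. Same-numbered replicates deviated together with r from -0.074 to 0.131, so the numbers were not taken to pair the libraries. With the replicate block 2956, 2039 and 609 genes passed in the 3 comparisons, against 2896, 1982 and 572 without it, and no member's call changed. Of 168 list counts under alternatives, 132 stayed within 1.5 times and 36 moved further. Depth limits Nectin4 and, at 26 to 55 counts, Cd274, and 3 wells per time give few degrees of freedom.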
